A study of Mus musculus with 13 samples.

Results

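The genes described here encode collagen chains, and they were taken as the rows of the gene count table whose symbol has the form Col, a number, the letter a and a number. The rule found 44 collagen chain genes among 34419 genes. They were measured by RNA sequencing of gluteal white adipose tissue (WAT), a subcutaneous depot of the hind body, from C57BL/6J mice that were housed at 22°C (n = 7) or at 29°C (n = 6) from birth until 13 weeks of age. 29°C is thermoneutral for mice, and 22°C is a standard room temperature at which posterior subcutaneous fat is cool. All mice, at either temperature, were males caged alone, without nests and with sparse bedding, and all were without posterior hair, which was removed after weaning to reduce insulation, so that no group with intact fur was compared. The comparison asks whether the chains of each collagen class differ in level in WAT between cool and thermoneutral housing. Each library came from 1 mouse.

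Collagens are secreted proteins in which chains wind around each other in a triple helix, and glycine recurs in the repeat Gly-X-Y because only glycine fits the core of the helix. Fibrillar collagens, chiefly types I, III and V, form the banded fibers of connective tissue, type IV forms the network of basement membranes, and type VI forms beaded filaments around cells. In WAT every adipocyte is wrapped in a basement membrane of type IV collagen and laminin and is held in a web of fibrillar and type VI collagen, and fibroblasts and adipocyte progenitors make much of the fibrillar part. Fibril-associated collagens with interrupted triple helices (FACITs) sit on the surface of fibrils, multiplexins connect basement membranes to the tissue around them, and some collagens span the plasma membrane.

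The repeat that defines these genes is visible in their coding sequences, which were read from the GENCODE M21 transcript with the longest coding sequence of each gene. A stretch of 3 chains is shown because they stand for the fibrillar, type VI and type IV classes, and *Col6a3* is a chain on which the comparison turns. Capitals mark the first 2 bases of each glycine codon, and codons are counted from the start codon. The stretches of *Col1a1* (codons 168 to 194) and *Col6a3* (codons 1558 to 1584) open the longest unbroken run of Gly-X-Y, whereas that of *Col4a1* (codons 148 to 174) runs across its end.
Col1a1: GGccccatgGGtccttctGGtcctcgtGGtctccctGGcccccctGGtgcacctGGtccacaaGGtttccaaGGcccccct
Col6a3: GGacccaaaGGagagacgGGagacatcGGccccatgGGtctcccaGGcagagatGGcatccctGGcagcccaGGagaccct
Col4a1: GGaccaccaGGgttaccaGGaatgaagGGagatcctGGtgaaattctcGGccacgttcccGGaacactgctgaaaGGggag

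In *Col1a1* and *Col6a3* the capitals return at an even spacing, and in *Col4a1* the spacing breaks. The longest unbroken run had 338 triplets in *Col1a1* and 344 in *Col3a1*, and the fibrillar chains with the shortest, *Col24a1* and *Col27a1*, had 216 and 217. The type IV chains had longest runs of only 39 to 66 triplets, and each had 16 to 19 separate runs of at least 10 triplets. The longest run had 87 triplets in *Col6a1* and in *Col6a2*, 45 in *Col6a3*, and 30 in *Col15a1* and in *Col18a1*. Glycine made up 28.3% of the codons of *Col3a1* and 9.30% of those of *Col6a3*, most of whose product lies outside the helix.

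Total counts ran from 22356637 to 25245785 per library. The totals fell into a lower cluster of 5 libraries, all from mice at 22°C, and a higher cluster of 8 libraries with the other 2 mice at 22°C and all mice at 29°C, so a comparison at similar totals rests on 2 mice at 22°C. Adipocyte markers such as *Adipoq* and *Plin1* took between 1.01% and 1.78% of counts in every library. Markers of skeletal muscle fiber took 0.0705% to 6.54% of counts at 22°C, against 0.00828% to 0.603% at 29°C, with the highest shares in replicates 7 and 1 at 22°C, and all 10 of them had higher estimates at 22°C. None of the 10 was called by edgeR, 5 had an unadjusted p below 0.05, and DESeq2 called 5. Of the 17779 genes tested by edgeR, 0.731% were called higher and 1832 were higher at an unadjusted p below 0.05. DESeq2 called 1676 of the 16388 genes to which it gave a P-adj in either direction, and 762 of these calls were lower. In whole tissue, fewer cells of a type and less RNA per cell cannot be told apart.

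The 44 chains together took 0.615% to 1.27% of counts at 22°C (median 1.03%) and 1.04% to 1.42% at 29°C (median 1.35%). The lowest shares, 0.615% and 0.799%, were those of replicates 1 and 7 at 22°C, the libraries with the most muscle marker RNA. Per length of transcript, expressed as CPM (counts scaled to library size) per kb, *Col3a1* had the highest level (501), followed by *Col1a1* (267), *Col1a2* (255), *Col4a1* (202) and *Col4a2* (123). *Col6a2* (116), *Col6a1* (115), *Col15a1* (108) and *Col5a3* (87.9) came next, and *Col18a1* reached 33.6. Fibrillar chains made up 61.0% ± 4.75 of the summed level per length of all chains at 22°C and 60.1% ± 3.82 at 29°C (SD, n = 7 and 6). Type IV chains made up 17.4% ± 2.52 and 16.7% ± 1.91, type VI chains 13.5% ± 0.682 and 14.3% ± 1.14, and multiplexins 6.83% ± 1.96 and 7.79% ± 1.65. Each of these ranges overlapped between temperatures, so no class took a share that set the groups apart.

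Of the 44 chains, 34 passed the filter on low counts and were among the 17779 genes tested. Fold changes are given as log2 of the level at 22°C over that at 29°C, with their standard error (SE), and a gene was called at a Benjamini-Hochberg adjusted p (P-adj) below 0.1 in edgeR's quasi-likelihood test. In this test 1.94% of all genes were called, 1.21% lower and 0.731% higher at 22°C. Called chains numbered 2, *Col18a1* and *Col6a3*, both lower at 22°C, and 0 were higher. Estimates were below 0 for 19 chains and above 0 for 15. The median log2 fold change of the 34 chains was -0.19, against 0.007 for all genes tested. An unadjusted p below 0.05 with a lower level at 22°C was given by edgeR to 10 chains, which is 29.4% of them, against 8.2% of all genes tested, and to 0 chains with a higher level. With DESeq2, which called 4.65% of genes as lower, 8 chains were called, all lower at 22°C: *Col18a1*, *Col6a3*, *Col6a1*, *Col6a2*, *Col4a1*, *Col4a2*, *Col5a2* and *Col27a1*. The CPM of the 2 groups did not overlap for 1 chain, *Col18a1*, which was lower at 22°C, while 0.748% of all genes were separated in that direction and 0.495% in the other, in which there were 0 chains.

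The chains were then split by level, a split that was made after the values were seen. All 13 chains with a mean of at least 100 CPM had lower estimates at 22°C, from -0.19 for *Col5a3* to -0.63 for *Col18a1*, with a median of -0.36. Of the 1797 genes at that level 59.1% had lower estimates, with a median of -0.04. These 13 chains made up 98.3% ± 0.553 of the summed level per length of all chains at 22°C and 98.6% ± 0.357 at 29°C. Of the 4 chains between 10 and 100 CPM 2 had lower estimates, and of the 17 below 10 CPM 4 had lower estimates, with a median of 0.13. With all mice, 6 of these 21 scarcer chains had lower estimates. Without replicate 4 at 22°C, 14 of the 21 had lower estimates, with a median of -0.05. The number was also 14 of 21 with a covariate for the cluster of totals and in the libraries with higher totals, and 12 of 21 with one for the muscle score, so the direction of the scarcer chains changed with these choices. All 13 abundant chains kept a lower estimate in each of the 13 fits that left out 1 mouse, in the libraries with higher totals only (median -0.40), and without the 2 libraries that had the most muscle RNA (median -0.28). At 22°C the libraries with higher totals were those of replicates 6 and 7 only. Replicate 7 had the most muscle marker RNA (6.54% of counts) and a low collagen share (0.799%), so the median of -0.40 rests in part on that library. With a covariate for the muscle score, which is a mouse's mean log2 CPM over the muscle markers, 12 of the 13 abundant chains kept a lower estimate, and the median was -0.27.

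**Figure D1:**
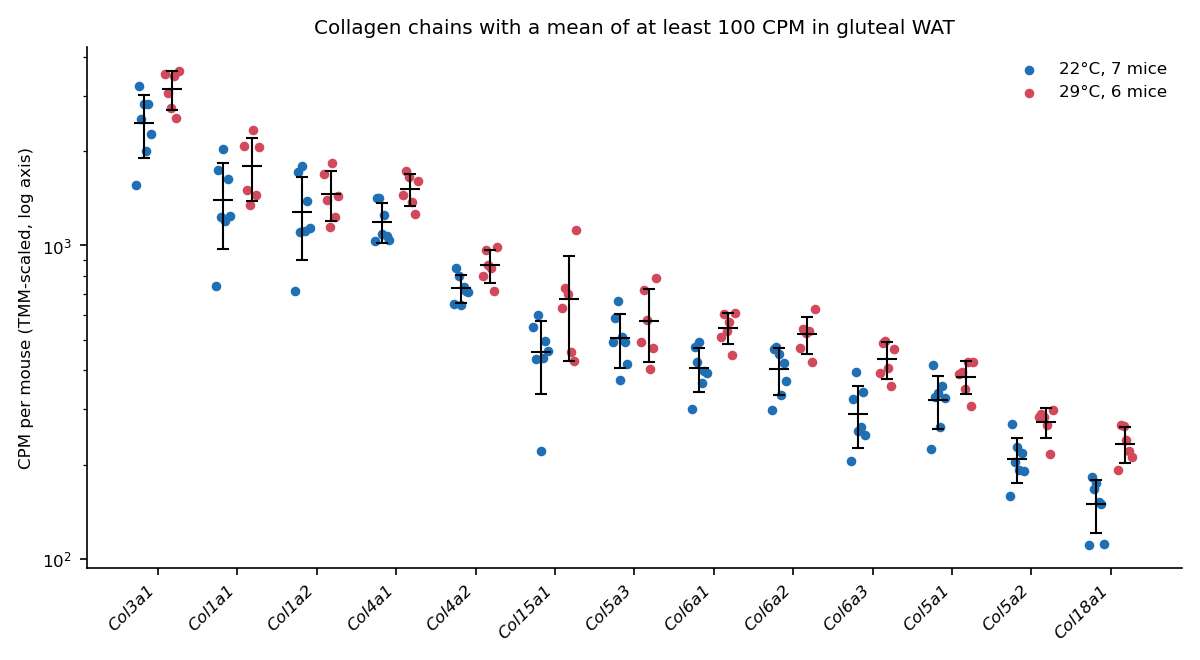
CPM of the 13 chains with a mean of at least 100 CPM in each mouse on a log axis, at 22°C (blue, n = 7) and 29°C (red, n = 6), with the mean and SD in black. The mean at 22°C lies below that at 29°C for all 13 chains, and only the points of *Col18a1* do not overlap between temperatures.

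Among the fibrillar chains, *Col3a1* (ENSMUSG00000026043.19), the sole chain of type III collagen, ranged from 1560 to 3233 CPM at 22°C with a median of 2541, and from 2548 to 3613 CPM at 29°C with a median of 3273. The ranges overlapped, and 4 of the 7 mice at 22°C lay below every mouse at 29°C. Its estimated log2 fold change was -0.36 ± 0.16 (SE; edgeR, P-adj = 0.259). *Col1a1* (ENSMUSG00000001506.11), which encodes the chain that makes up most of a type I molecule, ranged from 741 to 2035 CPM at 22°C with a median of 1238, and from 1344 to 2341 CPM at 29°C with a median of 1781. Its estimate was -0.36, with a 95% confidence interval from -0.82 to 0.10 (P-adj = 0.397, edgeR). *Col1a2*, the partner chain, had 1280 ± 379 CPM at 22°C and 1459 ± 265 CPM at 29°C (SD), with an estimate of -0.19 (SE 0.20; P-adj = 0.648, edgeR). The spread between mice was thus of the size of the difference for both type I chains, and none of these estimates passed the test.

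Type V collagen nucleates fibrils and is buried within those of type I. *Col5a2* ranged from 159 to 269 CPM at 22°C with a median of 204, and from 216 to 299 CPM at 29°C with a median of 283. At 29°C 5 mice lay between 267 and 299 CPM, and replicate 5 was at 216 CPM, near the middle of the range at 22°C, in which replicate 4 at 29°C (267 CPM) also lay. The log2 fold change of *Col5a2* was -0.39 (SE 0.11; P-adj = 0.127, edgeR), and it was called by DESeq2. *Col5a1* had an estimate of -0.24 (P-adj = 0.342, edgeR) and *Col5a3* one of -0.19 (P-adj = 0.600, edgeR). *Col27a1*, a fibrillar chain of cartilage that was scarce here and is named because DESeq2 called it, had 7.85 ± 1.69 CPM at 22°C and 11.2 ± 1.48 CPM at 29°C, with an estimate of -0.50 (SE 0.14; P-adj = 0.119, edgeR). Of the 9 fibrillar chains tested 7 had lower estimates, with a median of -0.24, while the scarce *Col11a1* and *Col11a2* had estimates of 0.17 and 0.35, of which that of *Col11a1* turned to -0.61 without replicate 4 at 22°C (5.03 CPM). Of the fibrillar chains 0 were called by edgeR, and 3 were lower at an unadjusted p below 0.05, against 8.2% of all genes. DESeq2 called 2, both lower, against 4.65% of all genes.

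**Figure D2:**
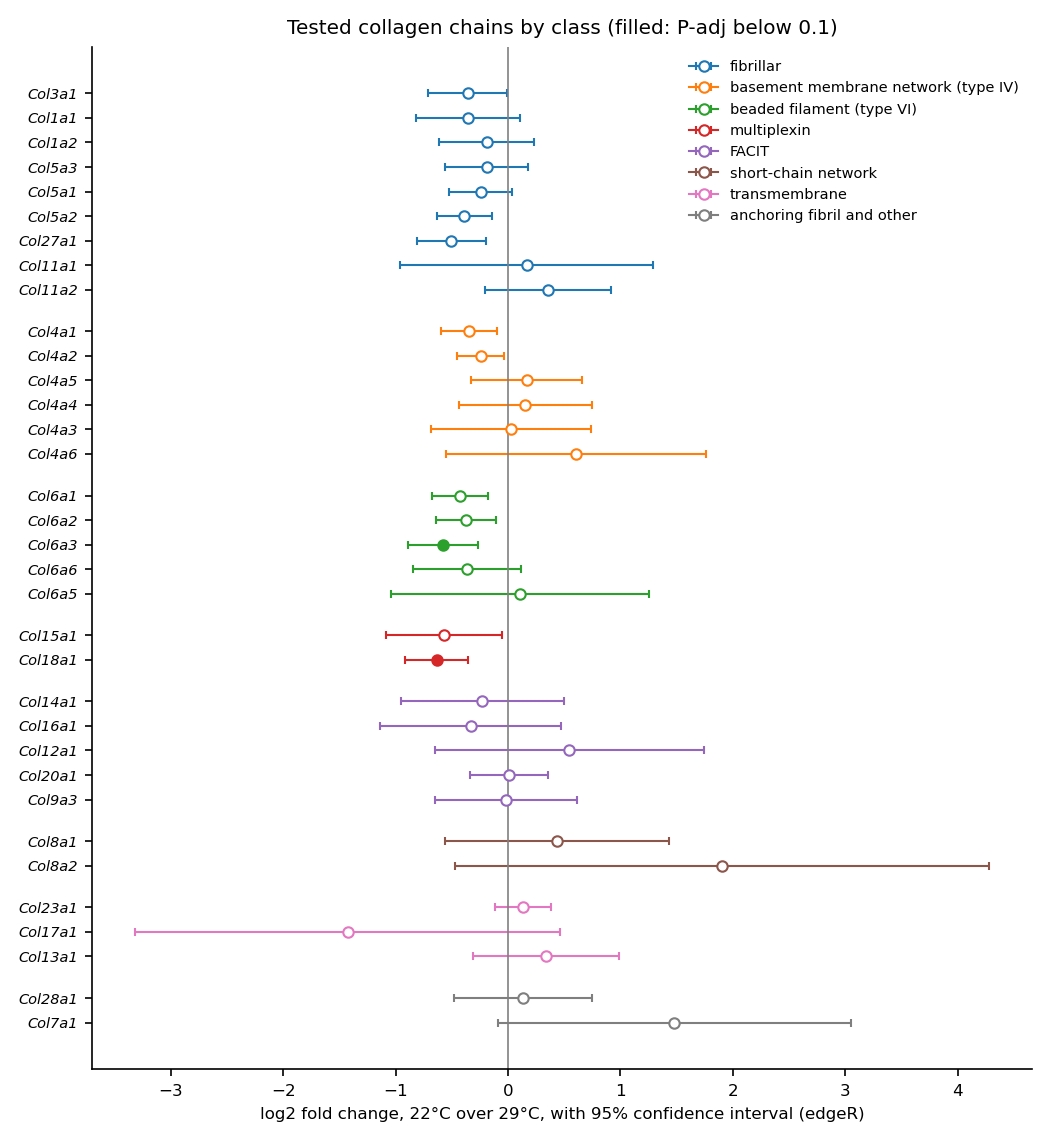
Log2 fold change, 22°C over 29°C, of the 34 tested chains with the 95% confidence interval from edgeR, grouped by class in color and sorted by level within a class. Filled points are the 2 chains with P-adj below 0.1, *Col18a1* and *Col6a3*, and the widest intervals are those of the scarce *Col8a2*, *Col17a1* and *Col7a1*.

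Type IV collagen is built mainly from the products of *Col4a1* and *Col4a2*, genes that face away from each other on chromosome 8 with 21 bp between their starts in the GENCODE M21 annotation of GRCm38. *Col4a1* (ENSMUSG00000031502.12) ranged from 1034 to 1423 CPM at 22°C with a median of 1092, and from 1264 to 1732 CPM at 29°C with a median of 1528. At 22°C 5 of the 7 mice lay below every mouse at 29°C, and the estimated log2 fold change was -0.35 ± 0.11 (SE; edgeR, P-adj = 0.162). *Col4a2* had 730 ± 74.6 CPM at 22°C and 864 ± 102 CPM at 29°C, with an estimate of -0.24 (SE 0.10; P-adj = 0.212, edgeR). Neither chain passed with edgeR, and DESeq2 called both (P-adj = 0.0374 and 0.0953). The minor type IV chains, which replace the main ones in a few basement membranes such as that of the kidney glomerulus, were at 0.25 to 2.28 CPM per kb, and *Col4a3* to *Col4a6* all had estimates above 0, from 0.03 to 0.61, which turned to -0.03 to -0.23 without replicate 4 at 22°C. The highest levels of *Col4a5* (30.4 CPM) and *Col4a6* (7.17 CPM) were those of replicate 4 at 22°C. Of the 6 type IV chains 2 thus had lower estimates, the 2 that carry nearly all of the class.

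The 3 abundant chains of type VI collagen all had lower estimates at 22°C. *Col6a3* (ENSMUSG00000048126.17), whose product is the largest type VI chain and releases the fragment endotrophin in adipose tissue, ranged from 205 to 393 CPM at 22°C with a median of 263, and from 356 to 496 CPM at 29°C with a median of 436. At 22°C 6 of the 7 mice lay below every mouse at 29°C, and replicate 3 alone fell within the 29°C range. *Col6a3* was called, with an estimated log2 fold change of -0.58 ± 0.14 (SE; edgeR, P-adj = 0.0896), a level at 22°C that was 0.668 of that at 29°C. The call held in 2 of the 13 fits without 1 mouse (P-adj up to 0.207, edgeR, all with lower estimates). It was lost without the 2 libraries with the most muscle RNA (estimate -0.46; P-adj = 0.134, edgeR) and with the muscle score as a covariate (estimate -0.40; P-adj = 0.232, edgeR).

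*Col6a1* ranged from 301 to 491 CPM at 22°C with a median of 398, and from 446 to 610 CPM at 29°C with a median of 552. *Col6a2*, whose product joins it in the same molecule, ranged from 299 to 475 CPM at 22°C with a median of 423, and from 425 to 627 CPM at 29°C with a median of 529. Their log2 fold changes were -0.43 (SE 0.12; P-adj = 0.112, edgeR) and -0.37 (SE 0.12; P-adj = 0.168, edgeR). Both missed the threshold with edgeR and passed with DESeq2 (P-adj = 0.0117 and 0.0556). *Col6a6*, a scarce alternative to *Col6a3*, had an estimate of -0.36 (P-adj = 0.405, edgeR), and *Col6a5* one of 0.11 (P-adj = 0.938, edgeR). Of the 5 type VI chains tested 4 had lower estimates, with a median of -0.37. Called by edgeR was 1 of the 5, against 1.21% of all genes called lower.

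Both multiplexins had lower estimates at 22°C. *Col18a1* (ENSMUSG00000001435.16), a basement membrane collagen with heparan sulfate chains whose end is released as endostatin, ranged from 111 to 183 CPM at 22°C with a median of 152, and from 192 to 266 CPM at 29°C with a median of 231. Every mouse at 22°C was below every mouse at 29°C. Its mean level was 150 ± 28.9 CPM at 22°C and 233 ± 30.0 CPM at 29°C (SD), with a log2 fold change of -0.63 (SE 0.13, 95% confidence interval from -0.92 to -0.35; P-adj = 0.0649, edgeR), a level that was 0.645 of that at 29°C. The call held in 10 of the 13 fits without 1 mouse, with P-adj up to 0.163 (edgeR), and it held without the 2 libraries with the most muscle RNA. It was lost with the muscle score as a covariate (estimate -0.53; P-adj = 0.176, edgeR) and in the libraries with higher totals only (estimate -0.84; P-adj = 0.230, edgeR). *Col15a1*, the other multiplexin, ranged from 221 to 598 CPM at 22°C with a median of 460, and from 428 to 1119 CPM at 29°C with a median of 664. Its groups overlapped widely, with replicate 4 at 22°C far below and replicate 6 at 29°C far above the others, and the estimate was -0.57 (SE 0.24; P-adj = 0.233, edgeR).

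The sequences just upstream of the starts of *Col18a1* and *Col6a3* are shown because these are the chains that were called. They are windows of RefSeq starts in the GRCm38.p6 build, 5′ to 3′ on the strand of the gene, and *Col18a1* has a second start elsewhere in the same table. Searched on both strands were the letters CCAAT (the CCAAT box), GGGCGG (the GC box) and TATAAA (the TATA box), and capitals mark each match.
Col18a1, chr10:77166531-77166780, minus strand: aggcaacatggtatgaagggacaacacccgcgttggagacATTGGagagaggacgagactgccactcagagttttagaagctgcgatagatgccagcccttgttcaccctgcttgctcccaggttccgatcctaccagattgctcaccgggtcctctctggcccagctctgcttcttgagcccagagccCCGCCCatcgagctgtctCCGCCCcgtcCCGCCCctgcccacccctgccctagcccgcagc
Col6a3, chr1:90843972-90844221, minus strand: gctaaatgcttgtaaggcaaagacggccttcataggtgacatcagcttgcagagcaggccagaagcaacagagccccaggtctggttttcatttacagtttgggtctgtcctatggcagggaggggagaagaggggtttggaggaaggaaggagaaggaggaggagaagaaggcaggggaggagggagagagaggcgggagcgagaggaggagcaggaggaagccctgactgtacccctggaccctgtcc

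The window of *Col18a1* held 1 CCAAT box and 3 GC boxes, all on the opposite strand, and that of *Col6a3* held none of these letters. The window of the second *Col18a1* start, chr10:77113706-77113955 on the minus strand, held none of them either. The table matched 35 of the 44 chains, with 38 windows. GC boxes were in 22 of the 38, or 57.9%, against 32.7% of all 32851 windows. CCAAT boxes were in 34.2% against 33.9%, and TATA boxes in 13.2% against 12.4%. A match is a match of letters and not a site of binding.

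FACITs were scarcer and less even between mice. *Col14a1*, which binds the surface of type I fibrils, ranged from 37.4 to 107 CPM at 22°C with a median of 59.3, and from 31.2 to 140 CPM at 29°C with a median of 79.7. The ranges at both temperatures were wide and covered each other, and the estimate of -0.23 had an interval from -0.95 to 0.50 (P-adj = 0.759, edgeR). It turned to 0.03 without replicate 4 at 29°C and to 0.30 in the libraries with higher totals. *Col16a1* had 19.5 ± 9.61 CPM at 22°C and 24.6 ± 13.7 CPM at 29°C, with an estimate of -0.33 (SE 0.37; P-adj = 0.677, edgeR). The other FACITs tested were *Col12a1*, *Col20a1* and *Col9a3*, with estimates of 0.55, 0.01 and -0.02. *Col12a1* reached 30.3 CPM in replicate 4 at 22°C, against 2.72 to 16.5 CPM in the other mice at that temperature.

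The network-forming short chains *Col8a1* and *Col8a2*, known from blood vessel walls and the cornea, owed their estimates to single mice. *Col8a1* had 29.3 CPM in replicate 1 at 22°C, 3.35 to 7.68 CPM in the other 6 mice at 22°C and 4.29 to 8.10 CPM at 29°C. Its estimate of 0.44 (P-adj = 0.656, edgeR) turned to -0.27 without that mouse. *Col8a2* had 17.7 CPM in replicate 4 at 22°C, 0.136 to 2.42 CPM in the other 6 and 0.0773 to 2.14 CPM at 29°C. Its estimate of 1.91 (P-adj = 0.378, edgeR), the highest of all chains tested, turned to -0.23 without that mouse. In the other 6 mice at 22°C the levels of both chains overlapped with those at 29°C.

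*Col7a1*, the chain of the anchoring fibrils of skin, had 16.2 CPM in replicate 1 and 6.15 CPM in replicate 7 at 22°C, against 0.634 to 2.85 CPM in the other 5 and at most 2.504 CPM at 29°C. These are the libraries in which muscle markers took 4.66% and 6.54% of counts. The estimate was 1.48 (SE 0.73; P-adj = 0.299, edgeR), and it was -0.25 with the muscle score as a covariate and -0.04 without those libraries. In the same libraries *Col22a1*, a FACIT of the junction between muscle and tendon that did not pass the filter, had 44 and 20 counts, and at most 10 counts elsewhere. *Col24a1*, a scarce fibrillar chain, had 19 and 32 counts there, 22 in replicate 4 at 22°C and at most 8 in the other mice. *Scx*, a tendon transcription factor, had its highest level in replicate 1 at 22°C (7.85 CPM), where *Thbs4* was at 39.3 CPM and *Tnmd* at 2.27 CPM. Other markers of the tendon and cartilage list were not high in that library, with *Sox9* at 1.11 CPM, *Comp* at 1.79 CPM, *Chad* at 0.369 CPM and *Acan* at 0.0527 CPM. The 8 markers together took 0.000603% to 0.00453% of counts at 22°C and 0.000594% to 0.00364% at 29°C. The highest share of all libraries, 0.00453%, was that of replicate 1 at 22°C. The part of muscle and tendon RNA in the estimates of these chains beyond the covariate was not tested.

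*Col17a1*, a transmembrane collagen of the hemidesmosomes of basal epithelium, had 18.2 CPM in replicate 4 at 29°C and 0.309 to 3.25 CPM in the other 12 mice. Markers of basal and stratified epithelium took 0.0545% of counts in that library and 0.00110% to 0.0147% in the others, with *Krt5* at 142 CPM, *Krt14* at 77.3 CPM and *Dsp* at 162 CPM. The estimate of *Col17a1* was -1.43 (SE 0.88; P-adj = 0.408, edgeR), and it turned to 0.39 without that library. *Col23a1*, also a transmembrane collagen, was even, at 9.97 ± 1.48 CPM in mice at 22°C and 9.09 ± 1.23 CPM in those at 29°C (estimate 0.13; P-adj = 0.582, edgeR). *Col13a1* had an estimate of 0.34 (P-adj = 0.588, edgeR) and *Col28a1*, a collagen known from peripheral nerve, one of 0.13 (P-adj = 0.838, edgeR).

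**Figure D3:**
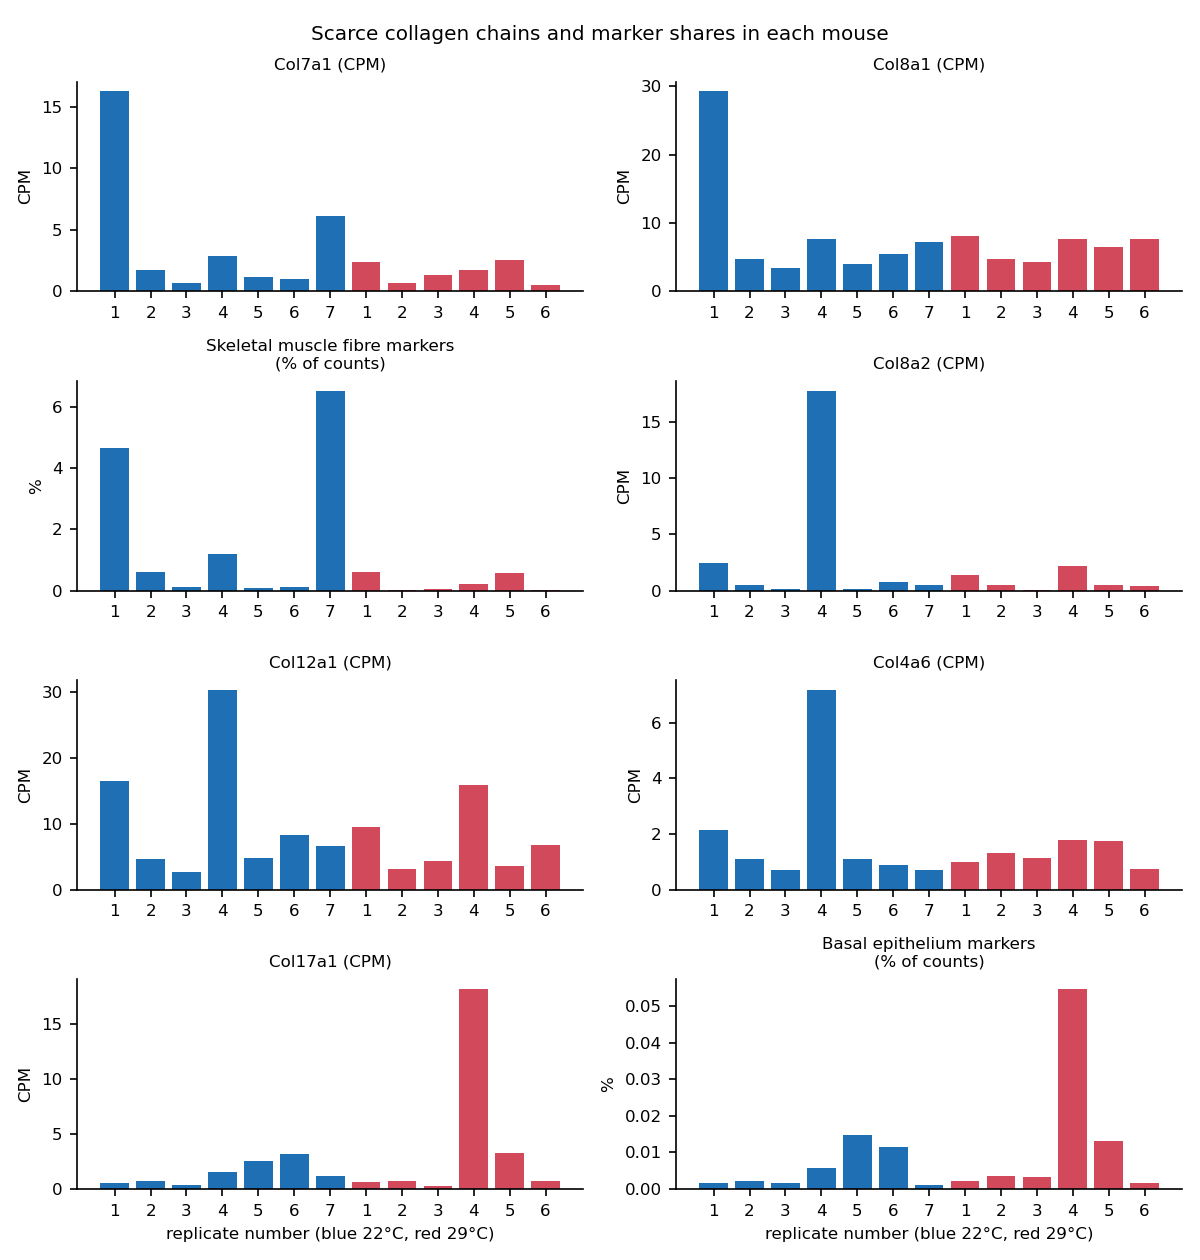
Bars give the level of 6 scarce chains in CPM and the share of counts of skeletal muscle fiber and of basal epithelium markers in percent, in each mouse at 22°C (blue) and 29°C (red). Single mice stand out, as *Col7a1* does in replicates 1 and 7 at 22°C with the muscle markers, *Col8a2* in replicate 4 at 22°C (17.7 CPM) and *Col17a1* in replicate 4 at 29°C (18.2 CPM) with the epithelial markers.

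The 10 chains that did not pass the filter were *Col2a1*, *Col6a4*, *Col9a1*, *Col9a2*, *Col10a1*, *Col19a1*, *Col22a1*, *Col24a1*, *Col25a1* and *Col26a1*. Their highest count in any library was 44 for *Col22a1*, 32 for *Col24a1*, 13 for *Col26a1*, 12 for *Col19a1* and 2 to 7 for the other 6. The chains of cartilage collagen among these 10 (*Col2a1*, *Col9a1*, *Col9a2* and *Col10a1*) thus had at most 5 counts in a library. Tested chains of cartilage collagen had more, with highest counts of 17 for *Col9a3*, 120 for *Col11a1*, 40 for *Col11a2* and 323 for *Col27a1*. They were not tested, and 3 counts in a library correspond to 0.119 to 0.134 CPM, for counting error only.

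Chains that assemble into 1 molecule, or that stand for the balance of fibrils and basement membrane, were compared as ratios of counts within each mouse. The ratio of *Col1a1* to *Col1a2* was 1.01 to 1.18 at 22°C and 1.07 to 1.43 at 29°C, although *Col1a1* itself varied from 741 to 2341 CPM. It was lower at 22°C by 0.16 on the log2 scale (p = 0.0181, two-sided exact permutation test; P-adj = 0.127 over 7 ratios). The SD over all mice was 0.13 (log2) for this ratio, against 0.45 for *Col1a1*. The ratio of *Col3a1* to *Col1a1* had geometric means of 1.79 and 1.78 at 22°C and 29°C (p = 0.943, exact permutation test). *Col4a1* to *Col4a2* was 1.46 to 1.78 at 22°C and 1.62 to 1.91 at 29°C (p = 0.0699; P-adj = 0.163, exact permutation test), and *Col5a1* to *Col5a2* was 1.37 to 1.71 and 1.23 to 1.59 (p = 0.0589; P-adj = 0.163, exact permutation test). *Col6a1* to *Col6a2* was 0.893 to 1.09 and 0.973 to 1.11, and *Col6a3* to *Col6a1* 0.522 to 0.927 and 0.713 to 0.928 (P-adj = 0.452 and 0.357, exact permutation test). *Col4a1* to *Col1a1*, a measure of basement membrane against fibrillar chains, varied most, from 0.536 to 1.40 at 22°C and from 0.586 to 1.23 at 29°C (P-adj = 0.943, exact permutation test). The 7 ratios did not pass the threshold after adjustment, and each p of this test is a share of the 1716 assignments of the mice.

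**Figure D4:**
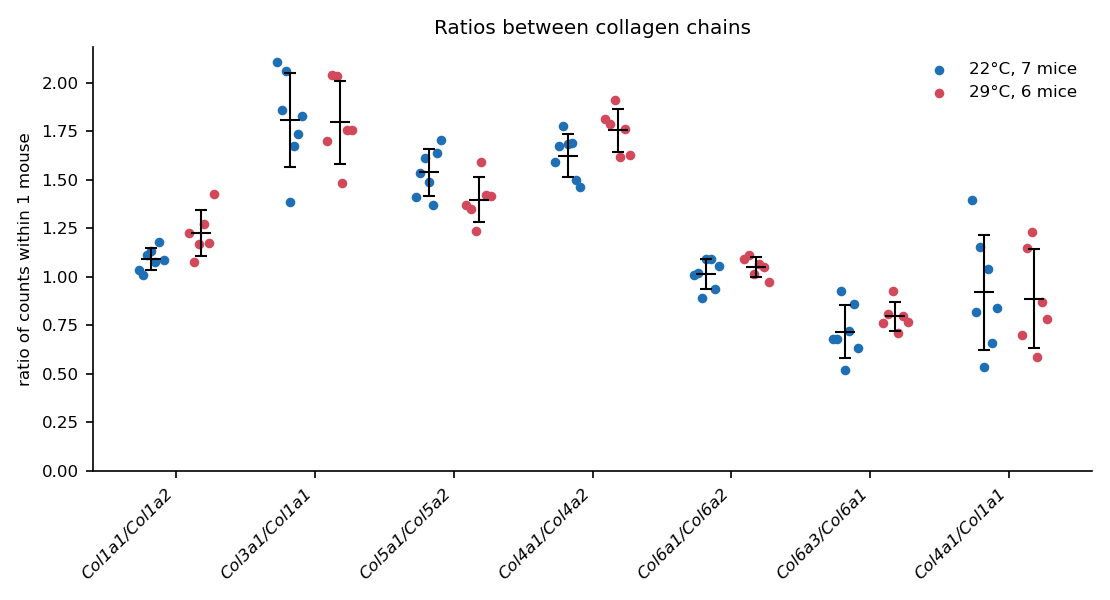
Ratio of counts of 7 pairs of collagen chains in each mouse at 22°C (blue, n = 7) and 29°C (red, n = 6), with mean and SD in black. The 2 groups overlap for every ratio, and the ratio of *Col4a1* to *Col1a1* is the most spread.

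Newly made chains are hydroxylated, glycosylated and folded in the endoplasmic reticulum (ER) before they are secreted. Of 23 tested genes of this list 16 had lower estimates at 22°C, with a median of -0.15, against 48.4% of all genes tested. Called genes numbered 4, all lower, against 1.21% of all genes called lower. DESeq2 called 8 of the list, all lower, against 4.65% of all genes. *Serpinh1* (ENSMUSG00000070436.13), the collagen-specific chaperone of the ER, ranged from 288 to 410 CPM at 22°C, against 434 to 657 CPM at 29°C. The ranges did not overlap, and its estimated log2 fold change was -0.62 ± 0.12 (SE; edgeR, P-adj = 0.0554). *P4ha1* and *P4ha2*, which encode catalytic subunits of the collagen prolyl hydroxylase, had 27.1 to 41.9 CPM and 22.7 to 30.1 CPM at 22°C, against 38.7 to 53.0 CPM and 31.5 to 43.3 CPM at 29°C, with log2 fold changes of -0.44 and -0.35 (P-adj = 0.0873 and 0.0924, edgeR). *Fkbp14*, a prolyl isomerase of the ER, had 22.4 ± 2.12 CPM at 22°C and 27.8 ± 1.64 CPM at 29°C, with an estimated log2 fold change of -0.32 ± 0.07 (SE; edgeR, P-adj = 0.0726).

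*P4hb*, the other subunit of the prolyl hydroxylase, had the second highest mean CPM of the list and did not pass (-0.23; P-adj = 0.110, edgeR), although its groups did not overlap (329 to 384 CPM at 22°C and 397 to 439 CPM at 29°C). In all, 6 of the 23 genes were separated by temperature in this way, *P4ha2*, *P4hb*, *Plod3*, *Colgalt1*, *Serpinh1* and *Fkbp14*, all lower at 22°C, against 0.748% of all genes separated in that direction. *Plod3* and *Colgalt1*, named for this separation, encode enzymes that hydroxylate lysines or add sugars to them. The number of called ER genes was 0 to 6 when 1 mouse was left out and 0 with a covariate for the muscle score or for the cluster of totals, and *Serpinh1* was called in 11 of the 13 fits without 1 mouse.

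**Figure D5:**
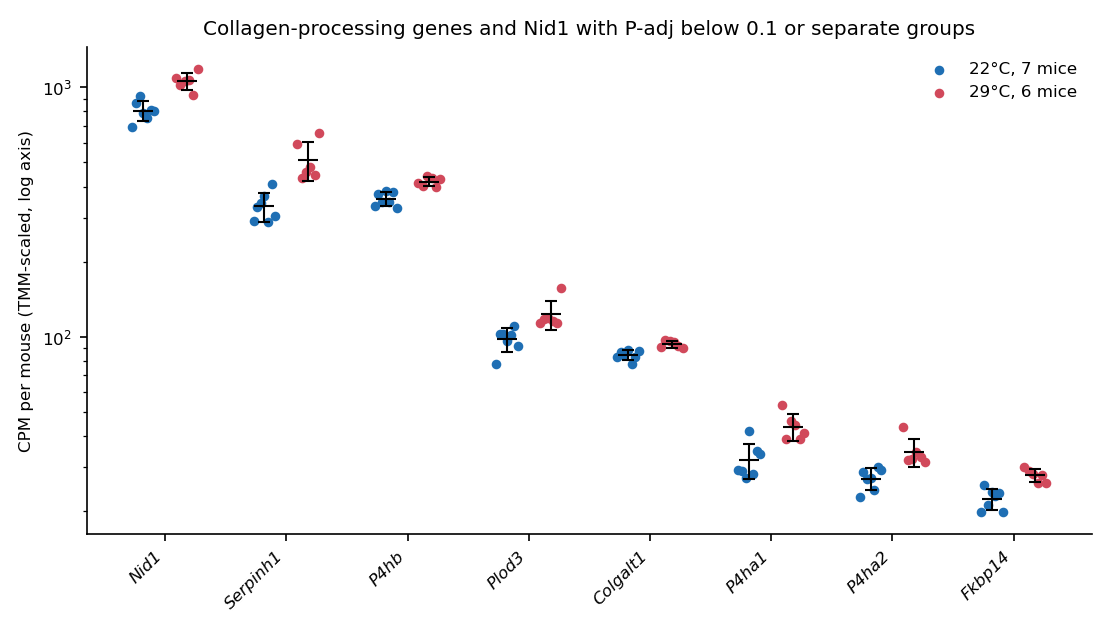
CPM in each mouse, on a log axis, of the collagen-processing genes and *Nid1* that had P-adj below 0.1 or did not overlap between temperatures, at 22°C (blue, n = 7) and 29°C (red, n = 6), with mean and SD in black. All 8 genes have a lower mean at 22°C, and *P4ha1* alone overlaps.

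Among proteins that share the basement membrane with types IV, XV and XVIII, 12 of 15 tested genes had lower estimates, with a median of -0.26. Called by edgeR was 1 of the 15, against 1.21% of all genes called lower. *Nid1*, whose product nidogen links laminin to type IV collagen, ranged from 694 to 919 CPM at 22°C, against 933 to 1183 CPM at 29°C, with no overlap. Its estimated log2 fold change was -0.40 ± 0.08 (SE; edgeR, P-adj = 0.0689), and it was called in 7 of the 13 fits without 1 mouse. The call was lost with the muscle score as a covariate (estimate -0.33; P-adj = 0.189, edgeR). *Hspg2*, which encodes perlecan, had an estimate of -0.27 (P-adj = 0.252, edgeR). Unadjusted p values below 0.05 were given to 9 of the 15 by edgeR, all lower, against 8.2% of all genes in that direction. DESeq2 called 6, all lower, against 4.65% of all genes.

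In the other partner lists 0 genes were called by edgeR, against 1.94% of all genes. At an unadjusted p below 0.05, 8.2% of all genes were lower and 1832 of the 17779 tested were higher. DESeq2 called 4.65% of genes as lower, and 1676 of the 16388 genes with a P-adj from it in either direction. Of propeptide cleavage and cross-linking genes 7 of 13 had lower estimates (median -0.06) and 0 had an unadjusted p below 0.05 or were called by DESeq2, with *Sparc*, a collagen-binding protein, at -0.32 (P-adj = 0.295, edgeR) and the cross-linking enzyme *Loxl1* at 0.21 (P-adj = 0.575, edgeR). Of collagen receptors all 10 tested had lower estimates (median -0.15), with 2 at an unadjusted p below 0.05 and 2 called by DESeq2, and *Itgb1* and *Ddr2* were at -0.16 and -0.08 (P-adj = 0.168 and 0.776, edgeR). Of fibril-associated proteins 10 of 18 had lower estimates (median -0.06), with 3 lower and 1 higher at an unadjusted p below 0.05 and 1 called by DESeq2, and *Dcn*, which encodes decorin, was at 0.22 (P-adj = 0.504, edgeR) and *Prelp* at -0.67 (P-adj = 0.223, edgeR). Of genes of the TGF-beta axis, a main inducer of collagen genes, 9 of 16 had lower estimates (median -0.05), with 2 higher and 0 lower at an unadjusted p below 0.05. DESeq2 called 1 of them, *Tgfb2*, which was higher at 22°C (estimate 0.91, P-adj = 0.141 with edgeR). The binding proteins *Ltbp3* and *Ltbp4* were at -0.17 and 0.28 (P-adj = 0.414 and 0.427, edgeR).

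Marker lists of the cell types that WAT can hold were described in the same way. Of fibroblast and adipocyte progenitor markers 7 of 10 had lower estimates (median -0.11), and they took 0.167% to 0.354% of counts at 22°C and 0.220% to 0.340% at 29°C. Endothelial markers were lower in 6 of 6 (median -0.13), with 0.0386% to 0.0530% and 0.0384% to 0.0603% of counts. Mural cell markers were lower in 5 of 6 (median -0.12), Schwann cell markers in 6 of 7 (median -0.26), macrophage markers in 4 of 6 (median -0.12), tendon and cartilage markers in 3 of 6 (median -0.06) and adipocyte markers in 3 of 6 (median -0.08). Basal epithelium and luminal epithelium markers were lower in 5 of 5 and 3 of 4 (medians -1.23 and -1.09), but their shares overlapped. Basal ones took 0.00110% to 0.0147% of counts at 22°C and 0.00155% to 0.0545% at 29°C. Luminal ones took 0.000114% to 0.00437% and 0.000127% to 0.00438%. The highest share of both lists was that of replicate 4 at 29°C. None of the genes on these lists was called by edgeR. At an unadjusted p below 0.05, 1 gene each of the adipocyte, progenitor, endothelial and Schwann cell lists was lower and 1 of the tendon list higher. Of all 17779 genes tested, 8.2% were lower and 1832 were higher at that threshold. DESeq2 called 1 gene of these lists, *Scx*, which was higher at 22°C. Of all 16388 genes with a P-adj from DESeq2, it called 1676 in either direction, 762 of them lower. Of the lymphocyte markers all 5 had higher estimates (median 0.78), and 1 was called, against 0.731% of all genes called higher. The lymphocyte markers took 0.00179% to 0.00450% of counts at 22°C (median 0.00219%) and 0.00129% to 0.00380% at 29°C (median 0.00225%).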

How the data were processed

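RNA of gluteal WAT from 13 mice was sequenced, 7 housed at 22°C and 6 at 29°C. Groups follow the temperature and replicate number that the labels give. The authors aligned reads with STAR 2.7.5a and counted them per gene with featureCounts, and the deposited table holds whole-number counts per gene. A deposited table of regularized log2 values, made by the authors with DESeq2, was used only in an alternative. The submitters' processing notes name GRCm39, the study's text names mm10 for its cultured cells, and the annotation and strand setting are not given in the sources used here.

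The count table pairs no symbols with its gene IDs, so symbols came from GENCODE M21 (GRCm38), matched on the ID without its version, for 34006 of 34419 genes. Counts were tested with edgeR 4.0.16 (R 4.3.3), TMM scaling, filterByExpr, the quasi-likelihood F test with temperature as the only factor and Benjamini-Hochberg adjustment over the 17779 genes that passed the filter, with calls at P-adj below 0.1. CPM were scaled by TMM, and SE was taken from the estimate and its F value, as estimate over the root of F. Levels per length used the transcript with the longest coding sequence. Ratios were tested by a two-sided exact permutation test. On simulated counts with the group sizes of this comparison, edgeR recovered 185 of 195 changed genes that were tested, with 16 false calls among 17964 genes. The planted log2 changes were all larger than the estimates of the abundant chains, so this recovery does not describe changes of their size.

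The members and gene lists were chosen with earlier results of these data known, as were the muscle score and the cluster of library totals as covariates. Genes were named by a rule: called chains, the 2 most abundant chains of each class, chains of the 7 ratios, chains whose groups do not overlap, and of each partner list the called genes and the 2 most abundant. The other tested chains, *Plod3*, *Colgalt1*, *Tgfb2* and single markers fall outside it, and the choice to name them came after seeing the values. *Col21a1* was not analysed here. Alternatives were DESeq2 1.42.0, its size factors in edgeR, other filters on low counts, a replicate block, each mouse left out, both covariates, the libraries with higher totals, limma 3.58.1 on the deposited log2 values, P-adj below 0.05 and, added after the data were seen, leaving out the 2 libraries with the highest muscle score. No pair of libraries agreed within sampling noise.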

Additional observations from a re-analysis of the deposited data

Results flagged for a closer look

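On the log2 CPM scale, in 3 cases the lowest or highest mouse of a group lay further from the others than a Dixon test at the 95% level allows, out of 82 groups examined (the 34 tested chains and the 7 ratios at each temperature), of which chance alone would flag about 5%. *Col5a2* was lowest in replicate 5 at 29°C, with 215.8 CPM against 266.9 CPM in the next mouse. *Col15a1* was lowest in replicate 4 at 22°C, with 221.3 CPM against 433.4 CPM in the next mouse, and this library also had the highest *Col8a2*, *Col12a1*, *Col4a5*, *Col4a6* and *Col11a1*. *Col8a1* was highest in replicate 1 at 22°C, with 29.25 CPM against 7.678 CPM in the next mouse, and this library also had the highest *Col7a1* and the lowest share of collagen counts.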

How the results depend on the processing

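edgeR called 2 chains. The count was 8 with DESeq2, 1 without the 2 libraries with the highest muscle score (chosen after seeing the data), and 0 at P-adj below 0.05, without a filter on low counts, with a covariate for the muscle score or for the cluster of totals, and in the libraries with higher totals only, where edgeR gave an unadjusted p below 0.05 and a lower level to 10, 9, 5, 5 and 6 chains. It was 0 to 3 when 1 mouse was left out, with 0 without replicate 2, 3 or 4 at 29°C. The number of all genes called was 345, but 1676 with DESeq2, 42 without a filter, 48 with the muscle score, 4 with the cluster of totals and 8 in the libraries with higher totals, and 32 (without replicate 3 at 29°C) to 652 (without replicate 6 at 22°C) when 1 mouse was left out. The median of the chains was -0.24 to -0.02 when 1 mouse was left out, with the highest value without replicate 4 at 29°C.

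Estimates above 0 in place of below 0 were given for *Col14a1* with the cluster of totals (0.31), in the libraries with higher totals (0.30) and without replicate 4 at 29°C (0.027, against down to -0.39 without another mouse), and for *Col17a1* without that mouse (0.39, against down to -1.74). Estimates below 0 in place of above 0 were given for *Col7a1* with the muscle score (-0.25) and without the 2 libraries with the highest muscle score (-0.037), for *Col28a1* without replicate 6 at 22°C (-0.10, against up to 0.36 without another mouse), for *Col8a1* with the muscle score (-0.28), the cluster of totals (-0.049), the libraries with higher totals (-0.055), the 2 libraries left out (-0.37) and without replicate 1 at 22°C (-0.27, against up to 0.58), and for *Col8a2* with the cluster of totals (-0.50), the libraries with higher totals (-0.51) and without replicate 4 at 22°C (-0.23, against up to 2.44). The cause was not tested. These are the 15 changes of direction among the values of the 20 chains named by the rule under 23 settings, of which 415 kept their direction and side of the threshold.

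When 1 mouse was left out, the log2 difference in ratio ranged from -0.20 to -0.12 for *Col1a1*/*Col1a2* (P-adj from 0.0354, without replicate 2 at 29°C, to 0.258, exact permutation test), from -0.047 to 0.068 for *Col3a1*/*Col1a1*, from 0.10 to 0.18 for *Col5a1*/*Col5a2*, from -0.13 to -0.085 for *Col4a1*/*Col4a2*, from -0.08 to -0.02 for *Col6a1*/*Col6a2*, from -0.23 to -0.09 for *Col6a3*/*Col6a1* and from -0.073 to 0.16 for *Col4a1*/*Col1a1*. Without replicate 4 at 29°C *Col1a1*/*Col1a2*, *Col5a1*/*Col5a2* and *Col4a1*/*Col4a2* had P-adj of 0.0884 (exact permutation test). In the libraries with higher totals *Col3a1*/*Col1a1* was -0.0031 and *Col4a1*/*Col1a1* was -0.20.

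Mice with the same replicate number are different animals. Their deviations from the group means correlated by 0.0508 (replicate 5) to 0.513 (replicate 1). Replicates 1, 2, 4 and 6 correlated best with their own number, by 0.513, 0.409, 0.487 and 0.387. Their highest correlations with another number were 0.211, 0.379, 0.412 and 0.0891. Replicates 3 and 5 correlated better with another number (0.456 and 0.286) than with their own (0.348 and 0.0508). Most numbers thus matched themselves best, and whether they mark a shared block was not tested further. The main test did not pair the mice by number. With the replicate block 214 genes and 2 chains were called by edgeR and the median of the chains was -0.22. The 10 chains that did not pass the filter on low counts were not tested.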
